A study of Mus musculus with 14 samples.

Results

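The miR-7 family was followed across cell populations of the mouse small intestine that differ in Sox9 reporter fluorescence. The family was defined by name, as the table entries without a start shift whose names begin with miR-7a or miR-7b. This gave 6 entries of 2030 in the table and of 534 at the annotated start: miR-7a-1-5p (listed as mmu-mir-7a-1-5p), miR-7a-2-5p, miR-7b-5p (mmu-mir-7b-5p), miR-7a-1-3p, miR-7a-2-3p (mmu-mir-7a-2-3p) and miR-7b-3p. All 14 libraries carry the labels C57BL/6J and Sox9eGFP, a transgene that reports Sox9 by green fluorescence. They fall into Negative, Sublow, Low and High cells, named for their fluorescence, with 3 libraries per population, and 2 Non-sorted libraries. The sources used here do not state age, sex, pooling of animals or sorting limits. No label ties a library to an animal of its own, so a p-value here reflects the spread among these libraries, which may be technical. Work on this reporter has assigned High cells to enteroendocrine cells, Low cells to stem cells, Sublow cells to dividing progenitors, and Negative cells to mature epithelium.

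A miRNA is cut from a hairpin precursor, and either strand of the hairpin stem (the 5p or the 3p arm) can be loaded into an Argonaute protein. Bases 2 to 8 of the loaded strand, the seed, pair with target mRNAs and lower their output. miR-7 is conserved across bilaterian animals and is abundant in neuroendocrine tissues such as the pituitary gland, the hypothalamus and the endocrine pancreas. In mouse islets it restrains insulin secretion, and in the brain it is bound by the circular RNA Cdr1as. In the gut, hormone-producing enteroendocrine cells are the counterpart of these tissues.

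The mouse makes miR-7 from 3 hairpins, and their sequences show which entries can be told apart. All 6 entries matched a RefSeq mature sequence (build GRCm38.p6). The table itself carries no coordinates, and the submitters' processing notes name mm9. Mir7-1 lies at chr13:58392779-58392886 on the minus strand, inside an intron of Hnrnpk and on the same strand, by the GENCODE annotation of GRCm38. Hnrnpk encodes a widely expressed RNA-binding protein. Mir7-2 lies at chr7:78888277-78888373 and Mir7b at chr17:56242988-56243098, both on the plus strand and both overlapping no annotated gene other than the miRNA itself. The hairpins are given with the 5p and 3p arms in capitals.
Mir7-1: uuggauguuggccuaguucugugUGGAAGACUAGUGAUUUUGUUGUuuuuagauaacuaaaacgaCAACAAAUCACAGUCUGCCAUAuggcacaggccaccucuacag
Mir7-2: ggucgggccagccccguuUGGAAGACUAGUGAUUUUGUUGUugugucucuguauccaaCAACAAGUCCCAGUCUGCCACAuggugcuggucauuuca
Mir7b: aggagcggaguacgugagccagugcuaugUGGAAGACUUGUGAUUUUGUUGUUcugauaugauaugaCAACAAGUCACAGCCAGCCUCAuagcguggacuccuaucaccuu

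The mature arms are given below with the seed in capitals, since the 5p arms share a seed and the 3p arms do not all share theirs.
miR-7a-5p: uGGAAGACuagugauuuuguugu
miR-7b-5p: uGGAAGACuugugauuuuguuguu
miR-7a-1-3p: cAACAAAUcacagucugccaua
miR-7a-2-3p: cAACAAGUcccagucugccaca
miR-7b-3p: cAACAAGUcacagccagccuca
Positions are counted from 1 at the 5′ end. miR-7a-5p and miR-7b-5p have the same seed and differ by 1 substitution over 23 compared positions, A10U. miR-7a-1-3p and miR-7a-2-3p differ by 3 substitutions, A7G, A10C and U21C, of which the first lies in the seed. miR-7a-2-3p and miR-7b-3p share a seed and differ by 4 substitutions. miR-7a-5p is the same 23-base sequence in Mir7-1 and Mir7-2, whose hairpins are identical over 24 bases from its first base. The entries miR-7a-1-5p and miR-7a-2-5p are therefore copies of a single mature sequence, and each 3p arm belongs to 1 hairpin.

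The values are RPM, reads per 1000000 reads over all miRNA entries of the library, as the authors deposited them. Depth was estimated from the steps between low values, searching only steps that put the smallest value near 10 reads. On that assumption it was 1.89 M to 16.4 M reads per library (M for 1000000). The smallest value listed in a library was 0.62 to 5.55 RPM, so an entry at 0 may be present below it. That this value equals about 10 reads was assumed in the search, and other step sizes were not tried. miRNAs of pluripotent cells were listed in 7 of 14 libraries, 1 each of Sublow, Low and High and 2 each of Negative and Non-sorted, and miR-295-3p, which marks them, reached 395 to 928 RPM there and 0 in the others. The summed values of 12 such entries were 0 to 2490 RPM in Negative, 0 to 2380 in Sublow, 0 to 1177 in Low, 0 to 2656 in High and 1891 to 2119 in Non-sorted libraries. The 5 listed haematopoietic entries summed to at most 213 RPM and the 5 mesenchymal ones to at most 95.7 RPM in any library, and miR-142-3p, miR-145-5p and miR-144-3p were at 0 in all of them. Together, the 4 miRNAs of differentiated gut epithelium took a share of the total that moved with the groups. Their sum was 532927 to 536735 RPM in Negative, 389326 to 400358 in Sublow, 163063 to 191709 in Low and 132788 to 158984 in High libraries. Of the 4, miR-192-5p went the other way, at 82655 to 82816 RPM in Negative and 102955 to 139528 in Low libraries. The part of these miRNAs in the RPM differences below was not tested. In sorted bulk RNA, fewer cells of a type and less miRNA per cell cannot be told apart.

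miR-7 was among the abundant miRNAs of the fluorescent populations and far lower in Negative cells. miR-7a-1-5p ranked 6th to 11th among the 534 annotated-start entries in High libraries and 9th to 10th in Low libraries. It held 2.62 to 3.71% and 2.54 to 2.67% of the library total over miRNA entries. Its copy miR-7a-2-5p held 2.31 to 3.31% and 2.31 to 2.41%, and how reads shared by the copies were counted is not stated. miR-7a-1-5p ranked 24th to 30th in Sublow, 37th to 40th in Negative and 23rd to 30th in Non-sorted libraries. All 5 members with enough reads for a test, of 6, differed among the 4 sorted populations (limma moderated F test, Benjamini-Hochberg adjusted p from 4.59e-09 for miR-7b-5p to 0.00620 for miR-7a-1-3p), as did 72.3% of all 588 tested entries. For miR-7a-1-3p this call was lost with median-ratio rescaling (F = 2.33, adjusted p = 0.171) and with quantile normalization (F = 3.08, adjusted p = 0.0947).

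Each of the 5 tested members was above the filter of 10 RPM in all Sublow, Low and High libraries. Among the 5, miR-7a-1-5p and miR-7a-2-5p are copies of the same mature sequence, so the counts are not of 5 separate miRNAs. The member counts by comparison are to be read against the share of all 588 entries called. In Negative against Low 5 of 5 tested members were lower, with 66.0% of entries called, 16.5% higher and 49.5% lower. In Sublow against Low 4 of 5 were lower, with 34.7% called, 10.4% higher and 24.3% lower. In High against Low 0 of 5 were called, with 28.1% called, 7.99% higher and 20.1% lower. In High against Sublow 4 of 5 were higher, with 50.5% called, 28.1% higher and 22.4% lower, and in High against Negative 5 of 5 were higher, with 66.3% called, 43.9% higher and 22.4% lower. In Negative against Sublow 5 of 5 were lower, with 35.5% called, 8.67% higher and 26.9% lower. In Sublow against Non-sorted 0 of 5 were called, with 24.0% called, 16.7% higher and 7.31% lower. In Non-sorted against Negative 4 of 5 were higher, where only 3.74% of entries were called, 3.74% higher and 0% lower.

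These splits depend on the scaling. In Negative against Low 97 entries were higher and 291 lower as deposited, 136 and 131 after median-ratio rescaling, 119 and 166 after quantile normalization, and 118 and 193 when rescaled to the sum without miR-215 entries, a scaling chosen after seeing the data. In Sublow against Low these counts were 61 and 143 as deposited, 86 and 68 with median ratios, 82 and 77 with quantiles and 82 and 80 without miR-215. In High against Low they were 47 and 118 as deposited, 81 and 70 with median ratios, 61 and 80 with quantiles and 43 and 120 without miR-215. In High against Sublow they were 165 and 132 as deposited, 159 and 138 with median ratios and 156 and 154 with quantiles. They turned to 113 and 186 without miR-215, and were 131 and 132 when High replicate 1 was left out. In High against Negative they were 258 and 132 as deposited, 193 and 172 with median ratios, 205 and 158 with quantiles and 180 and 170 without miR-215. In Negative against Sublow they were 51 and 158 as deposited, 75 and 68 with median ratios, 55 and 91 with quantiles and 58 and 116 without miR-215.

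The splits against Non-sorted cells also rest on single libraries. In Sublow against Non-sorted the counts were 98 higher and 43 lower as deposited, 12 and 53 with median ratios and 37 and 45 without miR-215. Quantile normalization kept the direction there, at 65 and 36. They were 32 and 24 without Non-sorted replicate 2 and 46 and 30 without Sublow replicate 3. In Non-sorted against Negative they were 22 and 0 as deposited, 20 and 5 with median ratios, 19 and 3 with quantiles, and 18 and 15 without Non-sorted replicate 1. Median-ratio rescaling left miR-7b-5p at −6.53 in Negative against Low and −2.14 in Sublow against Low, and miR-7a-1-5p at −2.79 and −1.33, on the log2 scale.

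miR-7b-5p, the arm that comes from Mir7b alone, was 40.7, 31.8 and 78.4 RPM in Negative libraries, 1754, 1028 and 1484 in Sublow, 8650, 8511 and 7162 in Low, and 11782, 9793 and 7741 in High. The Non-sorted libraries had 1942 and 1018 RPM. Negative libraries lay below all others, Sublow libraries below all Low and High libraries, and Low and High libraries overlapped. In order of the means, High (9772 ± 2021 RPM) was followed by Low (8107 ± 822), Non-sorted (1480 ± 654), Sublow (1422 ± 367) and Negative (50.3 ± 24.7; SD, n = 3, and 2 for Non-sorted). High and Low, and Non-sorted and Sublow, were the neighbours that did not differ beyond their spread.

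miR-7b-5p fell 169-fold in Negative against Low cells, a difference of −7.40 on the log2(RPM + 1) scale (SE 0.33, 95% interval −8.13 to −6.68, limma adjusted p = 4.51e-09). It fell 5.81-fold in Sublow against Low cells (−2.54, interval −3.27 to −1.81, adjusted p = 1.46e-04) and 29.1-fold in Negative against Sublow cells (−4.86, interval −5.59 to −4.14, adjusted p = 9.27e-07). High and Low cells did not differ beyond the spread between libraries (0.25, interval −0.47 to 0.98, adjusted p = 0.636), and neither did Sublow and Non-sorted cells (−0.02, interval −0.83 to 0.79, adjusted p = 1). Non-sorted cells had 29.5 times as much as Negative cells (4.88, adjusted p = 5.43e-06). High cells had 6.93 times as much as Sublow cells (2.79, adjusted p = 2.76e-05) and 202 times as much as Negative cells (7.66, adjusted p = 1.43e-09).

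miR-7a-5p, read here from the miR-7a-1-5p entry, ran in the same order over the sorted populations with smaller steps. It was 1956, 1795 and 2426 RPM in Negative libraries, 9304, 5551 and 9193 in Sublow, 26665, 25669 and 25380 in Low, 37058, 27530 and 26248 in High, and 8797 and 4333 in Non-sorted libraries. As for miR-7b-5p, Negative libraries lay below all others and Sublow libraries below all Low and High libraries, while Low and High overlapped. It fell 12.7-fold in Negative against Low cells (−3.66, SE 0.26, interval −4.23 to −3.09, limma adjusted p = 1.75e-07), 3.32-fold in Sublow against Low cells (−1.73, adjusted p = 3.74e-04) and 3.82-fold in Negative against Sublow cells (−1.93, adjusted p = 1.55e-04). High cells had 3.83 times as much as Sublow cells (1.94, adjusted p = 7.04e-05) and 14.6 times as much as Negative cells (3.87, adjusted p = 9.33e-08). High and Low cells were not told apart (0.21, interval −0.36 to 0.78, adjusted p = 0.621). Non-sorted cells had 3.02 times as much as Negative cells (1.60, adjusted p = 0.00595), but without Non-sorted replicate 1 this was 1.08 with adjusted p = 0.0568. Even in Negative cells, where miR-7b-5p was at most 78.4 RPM, miR-7a-1-5p averaged 2059 ± 328 RPM (SD, n = 3).

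The copy miR-7a-2-5p gave the same picture, at 1935 ± 316 RPM in Negative, 7499 ± 1995 in Sublow, 23628 ± 494 in Low, 26769 ± 5530 in High and 6097 ± 2990 in Non-sorted cells (SD, n = 3, and 2 for Non-sorted). It was 5.60 to 12.6% below miR-7a-1-5p in each of 14 libraries. Since the copies share their mature sequence, the amounts that come from Mir7-1 and Mir7-2 cannot be read from these entries, and their values were not added up.

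**Figure D1:**
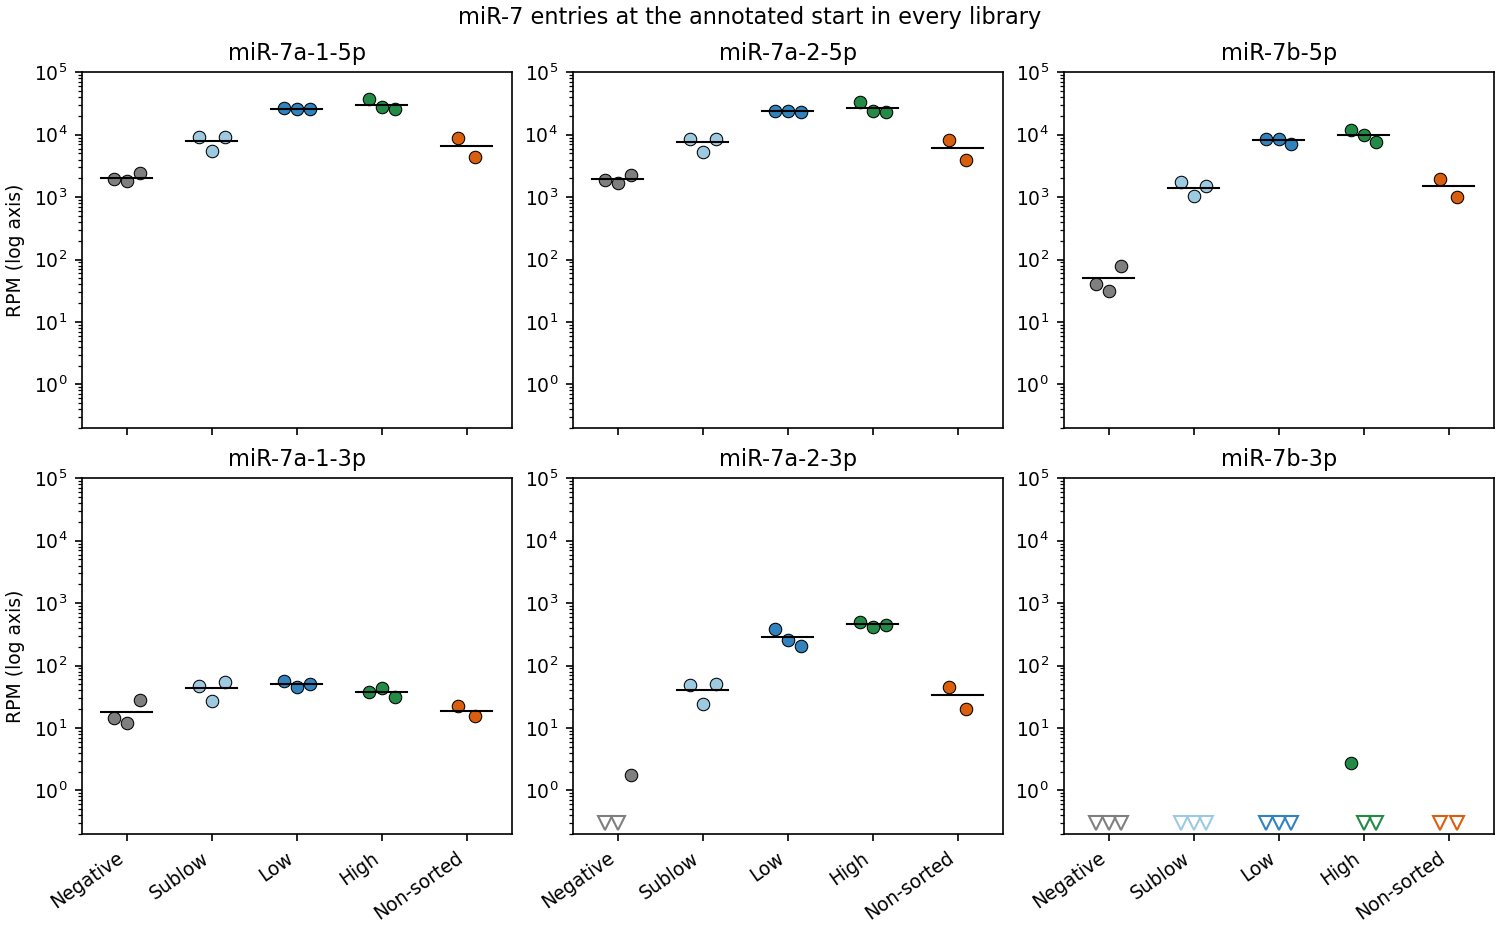
RPM on a log axis for the 6 miR-7 entries at the annotated start, by group in order of rising fluorescence, with Non-sorted cells last. Each filled point is 1 library, bars are means of groups with no library at 0, and open triangles at the bottom edge mark libraries listed at 0. The 5p entries and miR-7a-2-3p climb from Negative to Low and High, while miR-7a-1-3p stays between 12 and 57.3 RPM.

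The 3p arms, which identify their hairpin, differed from each other. miR-7a-2-3p from Mir7-2 was listed at 0, 0 and 1.75 RPM in Negative libraries, 49.2, 24.4 and 50.2 in Sublow, 384, 254 and 208 in Low, 491, 422 and 451 in High, and 46.2 and 20.4 in Non-sorted libraries. High, Low, Sublow and Negative libraries did not overlap. It fell 6.80-fold in Sublow against Low cells (−2.77, SE 0.45, interval −3.74 to −1.79, limma adjusted p = 5.34e-04) and 11.3 times as much was found in High as in Sublow cells (3.50, adjusted p = 4.65e-05). High against Low was 0.73 (interval −0.25 to 1.71, adjusted p = 0.252), which did not pass although the libraries did not overlap, and 7.99% of entries were called higher there. Against Low and Sublow cells, miR-7a-2-3p was called lower in Negative cells (adjusted p = 3.76e-08 and 9.28e-06). With 2 of 3 Negative libraries at 0, the size of this fall depends on the constant added before the logarithm, from −5.65 with 5 to −10.01 with 0.1 against Low, so no fold is given.

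miR-7a-1-3p from Mir7-1 changed much less. It was 14.3, 12 and 27.6 RPM in Negative libraries, 47.5, 27.0 and 54.6 in Sublow, 57.3, 46.1 and 50.9 in Low, 37.6, 44.4 and 31.8 in High, and 22.3 and 15.6 in Non-sorted libraries. Sublow overlapped Low, High and Negative. High lay wholly below Low, the reverse of miR-7a-2-3p, though neither difference was called, and Negative lay wholly below both. How many of all entries separated in this way was not counted. miR-7a-1-3p fell 2.93-fold in Negative against Low cells (−1.55, interval −2.28 to −0.82, limma adjusted p = 0.00151). Sublow against Low was −0.31 (interval −1.04 to 0.43, adjusted p = 0.496), and 0.082 after median-ratio rescaling. High against Low was −0.44 (interval −1.17 to 0.30, adjusted p = 0.372), and −0.12 after that rescaling. The median of all tested entries in Negative against Low was −0.90 as deposited. After median-ratio rescaling, which brought that median to −0.08, miR-7a-1-3p was −0.71 and no longer passed (adjusted p = 0.108). In High against Negative (1.11, adjusted p = 0.0118) and Negative against Sublow (−1.24, adjusted p = 0.0111) the call was lost in the same way, at 0.59 and −0.79. Leaving out Negative replicate 2 also ended both calls (adjusted p = 0.0526 and 0.0534), as did leaving out Sublow replicate 3 for the second (adjusted p = 0.0545). Sublow against Non-sorted was 1.10 (adjusted p = 0.0518).

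miR-7b-3p was listed at 2.76 RPM in High replicate 1 and at 0 in the other 13 libraries, and was not tested. In that library miR-7b-5p stood at 11782 RPM.

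**Figure D2:**
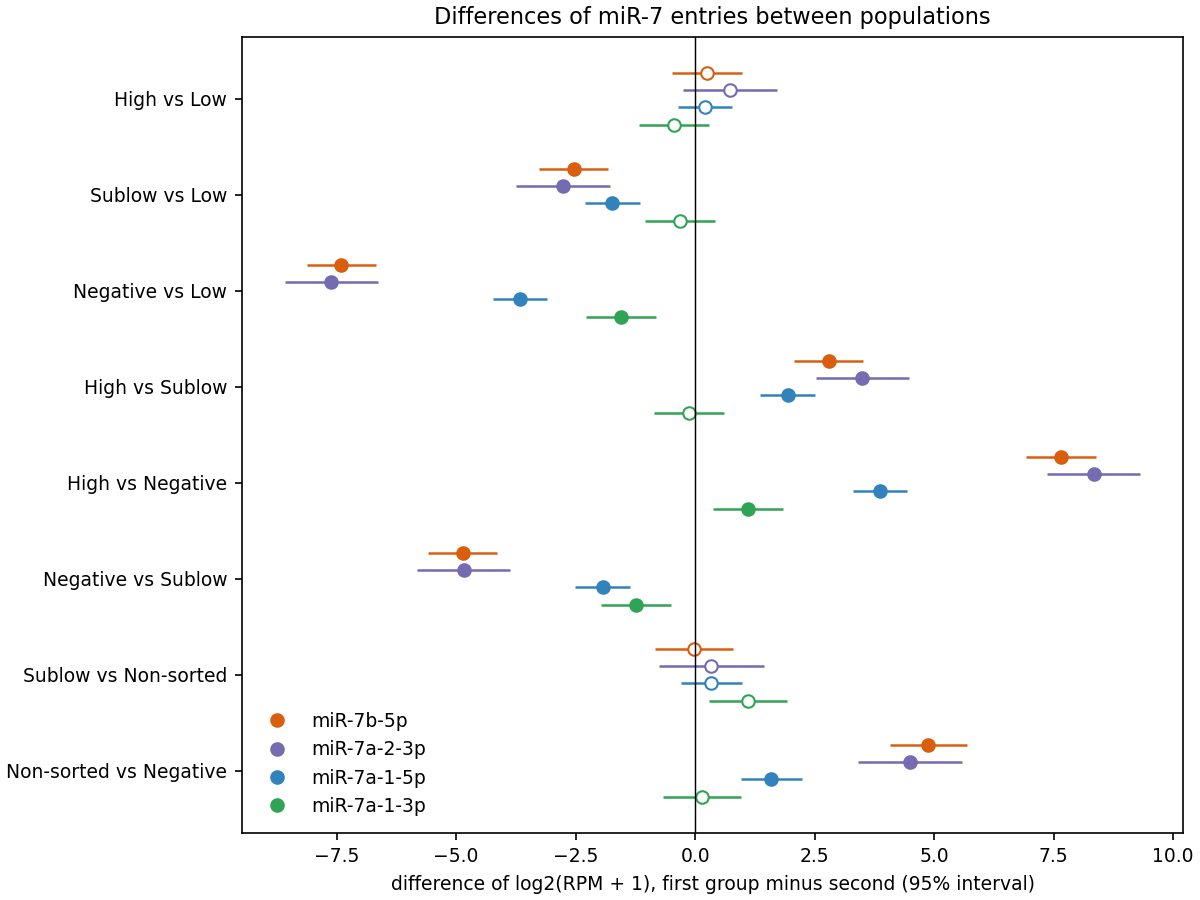
Differences of log2(RPM + 1), first-named group minus second, for 4 miR-7 entries in 8 comparisons. Points are limma estimates with 95% intervals, filled where the adjusted p was under 0.05. In Negative against Low miR-7b-5p lies at −7.40, farther from 0 than miR-7a-1-5p at −3.66 and miR-7a-1-3p at −1.55, while the place of miR-7a-2-3p in comparisons with Negative cells is set by the constant of 1 added before the logarithm.

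Ratios of entries within a library do not depend on the library total and ask whether members change by the same factor. The ratio of miR-7b-5p to miR-7a-1-5p was 0.0208, 0.0177 and 0.0323 in Negative libraries, 0.188, 0.185 and 0.162 in Sublow, 0.324, 0.332 and 0.282 in Low and 0.318, 0.356 and 0.295 in High, with 0.221 and 0.235 in Non-sorted libraries. It differed among the sorted populations (F = 156, exact permutation p = 4.55e-04, adjusted p = 0.00455 over 10 ratios and shares). Low and High libraries overlapped, and Sublow and Negative libraries each lay apart. miR-7b-5p thus made up 2.30 ± 0.73% of the sum of both entries in Negative cells, 15.1 ± 1.07% in Sublow, 23.8 ± 1.57% in Low and 24.4 ± 1.75% in High cells (SD, n = 3). This sum leaves out the copy miR-7a-2-5p, and how reads shared by the copies were counted is not stated. The percentages are therefore not the share of miR-7b-5p in all miR-7 5p reads.

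miR-7a-1-5p also changed against the Mir7-2 arm. Its ratio to miR-7a-2-3p was 189, 227 and 183 in Sublow libraries, 69.5, 101 and 122 in Low, 75.6, 65.2 and 58.2 in High, and 191 and 213 in Non-sorted libraries. Over Sublow, Low and High it differed (F = 25.3, exact permutation p = 0.00714, where 0.00357 is the smallest that 3 groups of 3 allow, adjusted p = 0.0179), with Sublow above the others. Permuted only within replicate numbers, it did not pass (exact permutation p = 0.0556, adjusted p = 0.0694 over 5 ratios). In the 1 Negative library that lists miR-7a-2-3p the ratio was 1387. The ratio of miR-7b-5p to miR-7a-2-3p was not shown to differ over the same populations (F = 5.01, exact permutation p = 0.0714, adjusted p = 0.119). It ranged from 29.6 to 42.1 in Sublow, 22.6 to 34.4 in Low and 17.2 to 24.0 in High libraries.

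Further ratios between arms are given as description, chosen after the values were seen. miR-7a-2-3p over miR-7a-1-3p was 1.04, 0.906 and 0.919 in Sublow libraries, 6.70, 5.52 and 4.09 in Low, 13.0, 9.51 and 14.2 in High, and 2.07 and 1.30 in Non-sorted libraries. It was 0.0635 in the 1 Negative library that lists both. The arm specific to Mir7-2 was therefore above that of Mir7-1 in every Low, High and Non-sorted library and near equal to it in Sublow libraries. The miR-7a-1-5p entry was 88.0 to 150 times miR-7a-1-3p in Negative, 169 to 206 times in Sublow, 466 to 557 times in Low and 620 to 985 times in High libraries. Since its sequence is shared with Mir7-2, this is not a ratio of the arms of Mir7-1 alone.

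**Figure D3:**
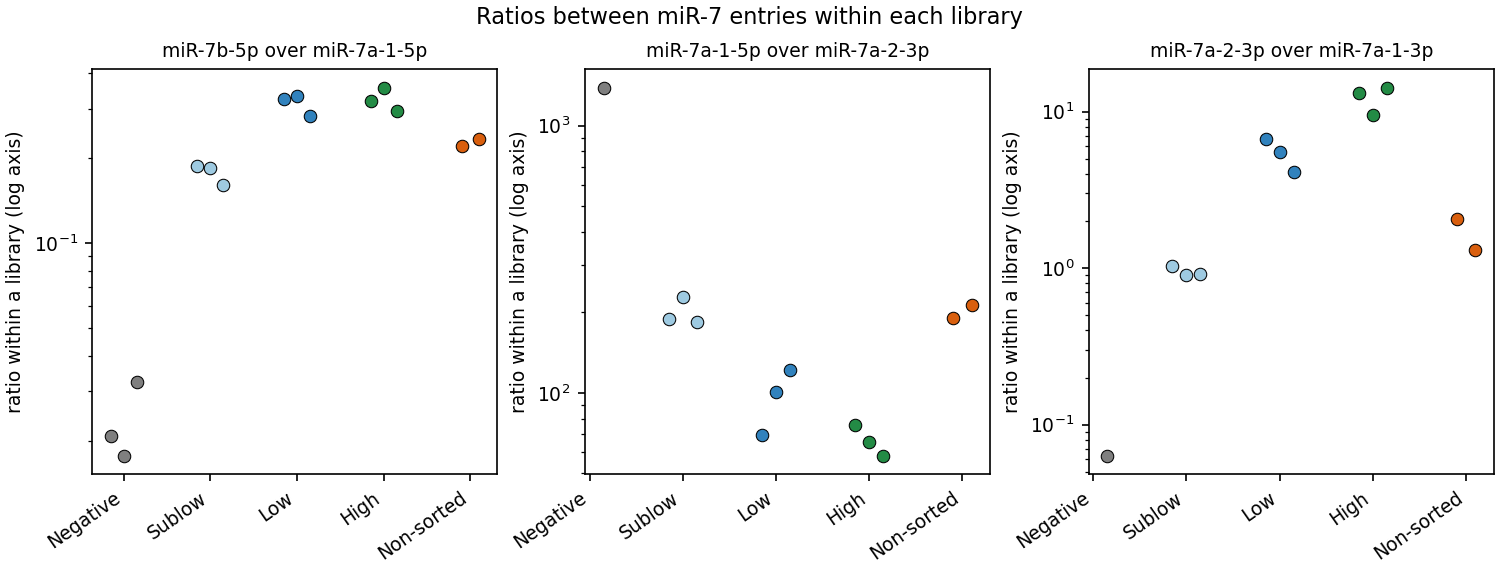
Ratios of 2 miR-7 entries within each library on log axes, by group in order of rising fluorescence, with Non-sorted cells last. Each point is 1 library, and libraries in which an entry is at 0 are left out. miR-7b-5p over miR-7a-1-5p is 0.0177 to 0.0323 in Negative and 0.282 to 0.356 in Low and High libraries, and miR-7a-2-3p over miR-7a-1-3p is 0.906 to 1.04 in Sublow and 9.51 to 14.2 in High libraries.

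The table also lists 35 entries of these arms with a shifted start, of which 9 are at 0 in all libraries and 8 passed the filter for testing. A shift by 1 base moves the seed. The form starting 1 base downstream was the main one, at 908 to 1362 RPM for miR-7a-1-5p in Low and High libraries and 269 to 484 RPM for miR-7b-5p. Shifted forms made up 3.99 ± 0.29% of miR-7a-1-5p in Negative, 3.87 ± 0.22% in Sublow, 3.85 ± 0.03% in Low and 3.89 ± 0.25% in High cells (SD, n = 3), and no difference was found (F = 0.219, exact permutation p = 0.888, adjusted p = 0.998). For miR-7b-5p the share was 4.07 ± 0.53% in Sublow, 4.17 ± 0.43% in Low and 4.02 ± 0.47% in High cells. In Negative libraries it was 10.1, 0 and 2.44%, where the shifted values of 0 to 4.56 RPM lie near the smallest listed value. miR-7a-1-3p had a larger shifted share, 36.5 ± 9.38% in Negative, 29.7 ± 8.02% in Sublow, 21.0 ± 2.59% in Low and 25.0 ± 5.62% in High cells (exact permutation p = 0.0925, n = 3, adjusted p = 0.132). For miR-7a-2-3p the shares were 1.90 ± 1.72% in Sublow, 5.78 ± 0.85% in Low and 4.37 ± 0.47% in High cells (exact permutation p = 0.00357, n = 3, adjusted p = 0.0119, and 0.107 without Low replicate 3). The shifted Sublow values of 0 to 1.71 RPM again lie near the smallest listed value.

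Reads starting 1 base upstream of miR-7a-5p include a base that differs between the hairpins, G in Mir7-1 and U in Mir7-2. The values of the upstream-shifted copies were 133 and 130.0 RPM in High replicate 1 and 88.1 and 92.5 RPM in Low replicate 1 for miR-7a-1-5p and miR-7a-2-5p, and miR-7a-1-5p was the higher one in 3 of 14 libraries. Over all libraries the upstream-shifted miR-7a-1-5p entry differed from its copy by −39.3 to 12.4%. The low end came from Negative replicate 2, where the values were only 5.7 and 7.94 RPM. The sources used here do not state how reads that match several hairpins were counted, or whether this base was used to separate them. These values therefore do not give the output of each hairpin.

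Other neuroendocrine miRNAs were taken from a list of 16, of which 12 were tested, 2 more are in the table and 2 were not found in it. Several of the 12, such as miR-153-3p and miR-212-3p, were at 0 in all Negative libraries and passed the filter only through High and Low libraries, so the 12 are not counted together against Negative or Sublow cells. miR-375-3p was −6.14 in Negative against Low and −1.91 in Sublow against Low (limma adjusted p = 1.84e-09 and 7.69e-05). miR-182-5p was −1.67 and −0.56 (adjusted p = 3.70e-08 and 8.00e-04) and miR-183-5p −1.58 and −0.46 in the same comparisons (adjusted p = 1.83e-07 and 0.00747). The medians of all tested entries were −0.90 in Negative against Low and −0.43 in Sublow against Low, so in the second comparison miR-182-5p and miR-183-5p lay close to the median. In High against Low, 5 of 12 were higher and 1, miR-218-2-5p, was lower, with 28.1% of all entries called, 7.99% higher and 20.1% lower. The list was chosen with earlier results of these data known, so this count is a description. miR-375-3p, which restrains insulin secretion in islets, was 1.10 in High against Low (interval 0.60 to 1.61, limma adjusted p = 0.00413), and miR-182-5p and miR-183-5p, from a cluster prominent in sensory cells, were 1.43 and 1.51 (adjusted p = 1.39e-06 and 3.44e-06). The tested miR-7 members did not pass in that comparison. miR-184-3p, prominent in islets and in the eye, resembled them, at 0.46 in High against Low (adjusted p = 0.291), and −2.61 in Sublow against Low (adjusted p = 5.54e-05). It was also called lower in Negative against Low (adjusted p = 2.45e-09), with 0, 0 and 0.94 RPM in Negative libraries, so no size is given.

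**Figure D4:**
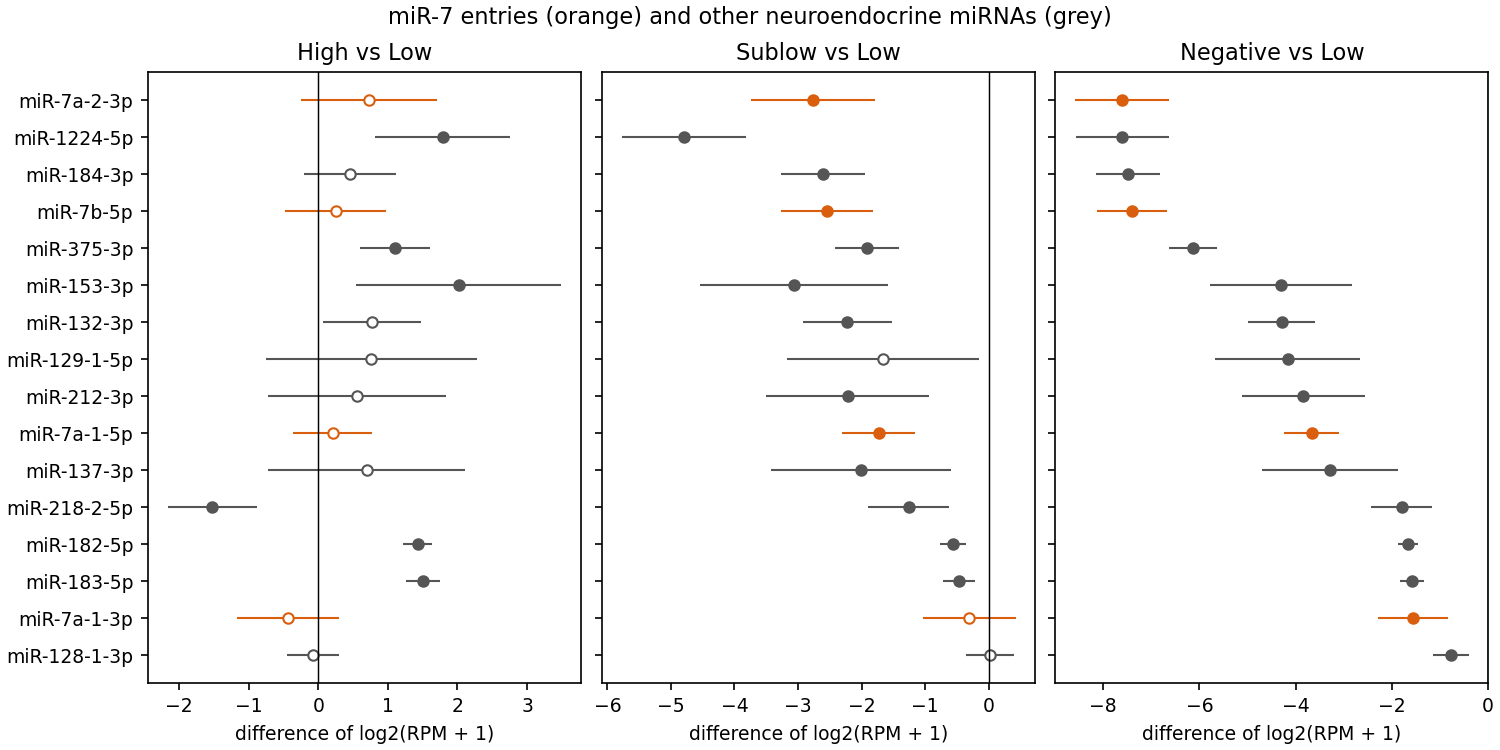
Differences of log2(RPM + 1) for 4 miR-7 entries (orange) and 12 other neuroendocrine miRNAs (grey) in High, Sublow and Negative against Low cells. Points are limma estimates with 95% intervals, filled where the adjusted p was under 0.05. In Negative against Low miR-7b-5p lies at −7.40, miR-375-3p at −6.14, and miR-7a-1-3p (−1.55) near miR-183-5p (−1.58), while places of entries at 0 in Negative libraries, among them miR-7a-2-3p, miR-1224-5p and miR-184-3p, are set by the constant of 1.

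Against miR-375-3p, the most abundant miRNA of the list in the fluorescent populations, miR-7a-1-5p was highest in Negative cells. The ratio of miR-7a-1-5p to miR-375-3p was 2.98, 2.48 and 2.15 in Negative libraries, 0.640, 0.302 and 0.690 in Sublow, 0.372, 0.483 and 0.513 in Low and 0.313, 0.204 and 0.224 in High (F = 37.7, exact permutation p = 0.00175, adjusted p = 0.00877). Negative libraries lay above all others. The ratio of miR-7b-5p to miR-375-3p stayed between 0.0440 and 0.160 in all sorted libraries, while miR-375-3p itself ranged from 657 to 135119 RPM. Its difference among populations was near the threshold (F = 5.56, exact permutation p = 0.0220, adjusted p = 0.0440) and was lost when any of 11 of the 12 sorted libraries was left out, up to adjusted p = 0.155 without Low replicate 2.

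The annotated-start miRNAs whose values were most like those of each member were found by Pearson correlation of log2(RPM + 1) over 14 libraries, which share the group structure, so the coefficients are descriptions. For miR-7b-5p they were miR-184-3p (r = 0.992), miR-375-3p (0.983), miR-92b-3p (0.961), miR-125a-5p (0.959) and let-7e-5p (0.952). The same 5 came out for miR-7a-2-3p, led by miR-184-3p (0.995), which is at 0 in the same 2 Negative libraries, and miR-375-3p (0.990). For miR-7a-1-5p, miR-125a-5p (0.983), let-7e-5p (0.981), miR-184-3p (0.980), miR-92b-3p (0.979) and miR-132-3p (0.972) stood first. The most like miR-7a-1-3p were a different set, miR-30a-5p (0.945), miR-23b-3p (0.913), miR-191-5p (0.909), miR-128-1-3p (0.901) and miR-151-5p (0.894). Among the members, miR-7b-5p and miR-7a-2-3p correlated at 0.993 and miR-7a-1-3p with the other 4 tested members at 0.760 to 0.790.

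Libraries were sequenced on different lanes by their labels. Within the 4 High and Low libraries labelled as Combo, High against Low was 0.46 for miR-7b-5p, 0.32 for miR-7a-1-5p and 0.98 for miR-7a-2-3p. Within lane L005 (1 Negative, 2 Sublow and 1 Low library), Negative against Low was −6.77, −3.46 and −1.03 for miR-7b-5p, miR-7a-1-5p and miR-7a-1-3p, and Sublow against Low was −2.42, −1.53 and −0.17. No lane label was shared by High and Sublow or by High and Negative libraries. The Combo label does not say on which lanes those libraries were run. Within the 7 libraries that list miR-295-3p, Negative against Low was −7.85 for miR-7b-5p and −3.78 for miR-7a-1-5p, and within the other 7 it was −6.63 and −3.42.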

How the data were processed

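Small RNA libraries (TriLink CleanTag kit, per the labels) were analysed from 1 table that the authors deposited in RPM, each library scaled to 1000000 over 2030 miRNA entries (534 at the annotated start, 1496 with a shift suffix, which the header leaves undefined and which was read as a shifted start). The submitters' processing notes name mm9, and the sources used here give no aligner, counting settings or treatment of reads that match several hairpins. Read depth was estimated from the steps between low values, with the smallest value taken to be near 10 reads (69.2 to 85.3% whole within 0.1 read). Entries of at least 10 RPM in at least 3 libraries (588) were fitted as log2(RPM + 1), which understates changes of low entries, in 1 model over 5 groups with limma 3.58.1 (R 4.3.3, empirical Bayes with trend), two-sided, Benjamini-Hochberg adjusted over 588 entries, threshold 0.05. Differences are first minus second group. Ratios were compared by exact permutation of libraries among populations where both entries were above 0 in all 3 libraries, and shifted shares among those where the annotated-start entry was above 0 in all 3, shifted forms at 0 included, adjusted over 10 tests. Scripts were tested on simulated data. Named were all family entries, the 5 entries most correlated with each member and a list of 16 neuroendocrine miRNAs, each by its most abundant copy. Members and lists were chosen with earlier results of these data known. Alternatives covered the pseudocount, filter, scaling, shifted forms, trend, lane label, replicate number and leaving out each library. Figures used matplotlib 3.10.9.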

Additional observations from a re-analysis of the deposited data

How the results depend on the processing

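The 27 results of miR-7b-5p, miR-7a-1-5p and miR-7a-2-3p kept their direction and call in 690 of 702 refits, and none of the 12 exceptions touches a comparison between sorted populations. In Sublow against Non-sorted, which was not called, the sign turned for miR-7a-1-5p with median-ratio rescaling (−0.056), quantile normalization (−0.077) and a lane term (−0.032), for miR-7a-2-3p with rescaling (−0.037), a lane term (−0.48) and a term for the libraries that list miR-295-3p (−0.12, added after seeing the data), and for miR-7b-5p with quantile normalization (0.16). Leaving out 1 library gave −0.17 to 0.85, −0.23 to 0.91 and −0.48 to 0.45 there, and 1.08 to 2.11 for miR-7a-1-5p in Non-sorted against Negative.

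miR-7a-1-3p depended on scaling. With median-ratio rescaling and quantile normalization it was −0.71 and −0.89 in Negative against Low, 0.59 and 0.60 in High against Negative, −0.79 and −1.02 in Negative against Sublow, and F was 2.33 and 3.08, all no longer called. High against Negative was 0.83 with a lane term and 0.58 when rescaled to the sum without miR-215 entries (added after seeing the data). Sublow against Non-sorted was called with pseudocount 5 (0.97) and with shifted entries added (1.15). Uncalled values turned sign in Sublow against Low with rescaling (0.082), quantile normalization (0.13) and without miR-215 entries (0.027), and in Non-sorted against Negative with quantile normalization (−0.15) and shifted entries added (−0.032). Leaving out 1 library gave 0.89 to 1.45 in High against Negative, −1.58 to −1.01 in Negative against Sublow, 0.86 to 1.40 in Sublow against Non-sorted, −0.43 to 0.069 in High against Sublow and −0.10 to 0.48 in Non-sorted against Negative.

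Column names share a prefix per replicate number, whose meaning the labels do not give. Deviations of same-numbered libraries correlated above 0.1 in 17 of 26 pairs (median 0.33), against 11 of 52 pairs of different number (median −0.11), and 9 of 14 libraries were closest to their own number. This is a hint of pairing, but not every same-numbered pair was above 0.1, so the block is given as an alternative. With the replicate block, calls moved to 396 of 588 in Negative against Low, from 388, miR-7b-5p had adjusted p = 1.34e-08 there, and of the miR-7 results 2 ratios no longer passed, miR-7a-1-5p over miR-7a-2-3p (F = 19.4, exact permutation p = 0.0556 where 0.0278 is the smallest possible, adjusted p = 0.0694 over 5 ratios) and miR-7b-5p over miR-375-3p (F = 6.06, adjusted p = 0.0550). Leaving out 1 library gave F of 3.53 to 13.1 for miR-7b-5p over miR-375-3p, 6.19 to 13.8 for the shifted share of miR-7a-2-3p and 0.00213 to 7.22 for that of miR-7b-5p, the last passing without Negative replicate 1. The causes were not tested. Values at 0 are limited by the smallest listed value, taken here as about 10 reads.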
